A study of Danio rerio with 8 samples.

Results

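Sulfate carriers and the enzymes that activate sulfate were followed in whole zebrafish embryos at 8 hours post fertilization (hpf), a stage of gastrulation, with and without the microRNA gene miR-34a. The members were taken by gene symbol: the carriers slc13a4, slc13a1, slc26a1 and slc26a2, the synthases papss1, papss2a and papss2b, and the Golgi transporter slc35b2, which makes 8 of the 32520 genes in the count table. Of these, slc13a4 was chosen by its measured log2 fold change in these libraries, a large fall in the mutants, so its difference between genotypes is given as a description with no test. The remaining members joined it through the pathway they share, with earlier results of these data known. A filter on low counts left 13842 genes to test, 7 of the 8 members among them, and slc13a1 had no reads at all.

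The 8 poly-A RNA-seq libraries came from 4 pools of miR-34a-/- embryos and 4 pools of wild-type embryos, each of about 30 dechorionated whole embryos. Both genotypes were on the casper background, a pigment-poor line, and the mutants carry a deletion of the miR-34a gene made with Cas9 and guide RNAs on either side of it. The mutants were kept as a separate homozygous line, so that their embryos also lacked maternal miR-34a, and the wild-type embryos were not their siblings. The loss of miR-34a and any other genetic difference between the lines therefore cannot be told apart in any comparison below. Nothing in the sources used here says that the pools came from separate clutches, so p-values measure the spread between these pools, which may be technical. In a bulk library of this kind, fewer cells of a type and less RNA per cell cannot be told apart.

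Sulfate cannot cross membranes unaided. Sodium-coupled carriers of the SLC13 family and anion exchangers of the SLC26 family bring it into cells, where PAPS synthases join it to ATP to make PAPS (3′-phosphoadenosine 5′-phosphosulfate), the donor for every sulfotransferase. PAPS made in the cytosol is used there by cytosolic sulfotransferases or is carried into the Golgi, where sulfate is placed on heparan and chondroitin chains and on tyrosines of secreted proteins, and sulfated chains in the embryo are known to bind Fgf, Wnt and other secreted signals.

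The microRNA that the mutants lack is shown here because its loss is the difference between the genotypes that the labels name. Its mature strand, in DNA letters and with the seed (bases 2 to 8, the part that pairs with target RNAs) in capitals, was read from the perfect target sites of the study's reporter oligonucleotide.
miR-34a: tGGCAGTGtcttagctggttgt
The study's list of predicted miR-34 targets names slc26a1 and papss2a among the members. Only part of that list was read here, so whether the others are on it is not known. The precursor gene mir34a (ENSDARG00000081220) had 0 counts in 8 of 8 libraries, and the genotype labels could therefore not be checked from it.

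Libraries held 8159574 to 15724724 counted reads in miR-34a-/- pools and 7132045 to 11191023 in wild-type pools. Levels are given as CPM, read counts brought to a common library size with edgeR's TMM factors, and fold changes are miR-34a-/- over wild-type on the log2 scale. Adjusted p-values come from the quasi-likelihood test of edgeR, adjusted by Benjamini-Hochberg over all genes tested. At an adjusted p under 0.05, 45.4% of all genes tested were called, 23.0% higher and 22.4% lower in the mutants, and the median log2 fold change of all genes was 0.00. This background is wide, and the counts of members below are to be read against it. At this depth 3 counts, taken as the floor of detection, correspond to 0.193 to 0.420 CPM.

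Of the carriers, slc13a4 was 4.20-fold lower in the mutants, while the exchangers slc26a1 and slc26a2 differed little between the genotypes. Among the synthases, papss2b rose and papss1 did not pass the test. Leaving slc13a4 aside, 1 of the 6 tested members was higher (against 23.0% of all genes), 0 were lower (against 22.4%) and 5 were not called, with a median log2 fold change of -0.08. A similar picture came from the libraries themselves, since papss2b was the only one of these 6 whose genotypes did not overlap, a state found in 38.8% of all genes tested. It was also the 1 member of the 6 called with a difference of at least 1.5-fold, which 8.84% of all genes reached as higher and 8.76% as lower (17.6% together).

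slc13a4 (ENSDARG00000059053) encodes a sodium-coupled sulfate carrier that in mammals is abundant in placenta and brain. It had 61.1, 63.3, 60.8 and 59.8 CPM in the miR-34a-/- pools, against 250.9, 228.5, 305.1 and 242.5 CPM in the wild-type pools. The highest mutant pool lay far below the lowest wild-type pool, and the mutants hardly varied among themselves, with a coefficient of variation of 2.40% in miR-34a-/- and 13.1% in wild-type. Its means were 61.2 ± 1.47 CPM in miR-34a-/- and 256.7 ± 33.6 CPM in wild-type (SD, n = 4 each). The log2 fold change was -2.07, a level 4.20-fold lower. These values rest on 2708 counts in the mutants and 9803 in the controls.

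Of all 13842 genes tested, 161 had a lower log2 fold change than slc13a4, a place that restates how the gene was chosen.

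**Figure D1:**
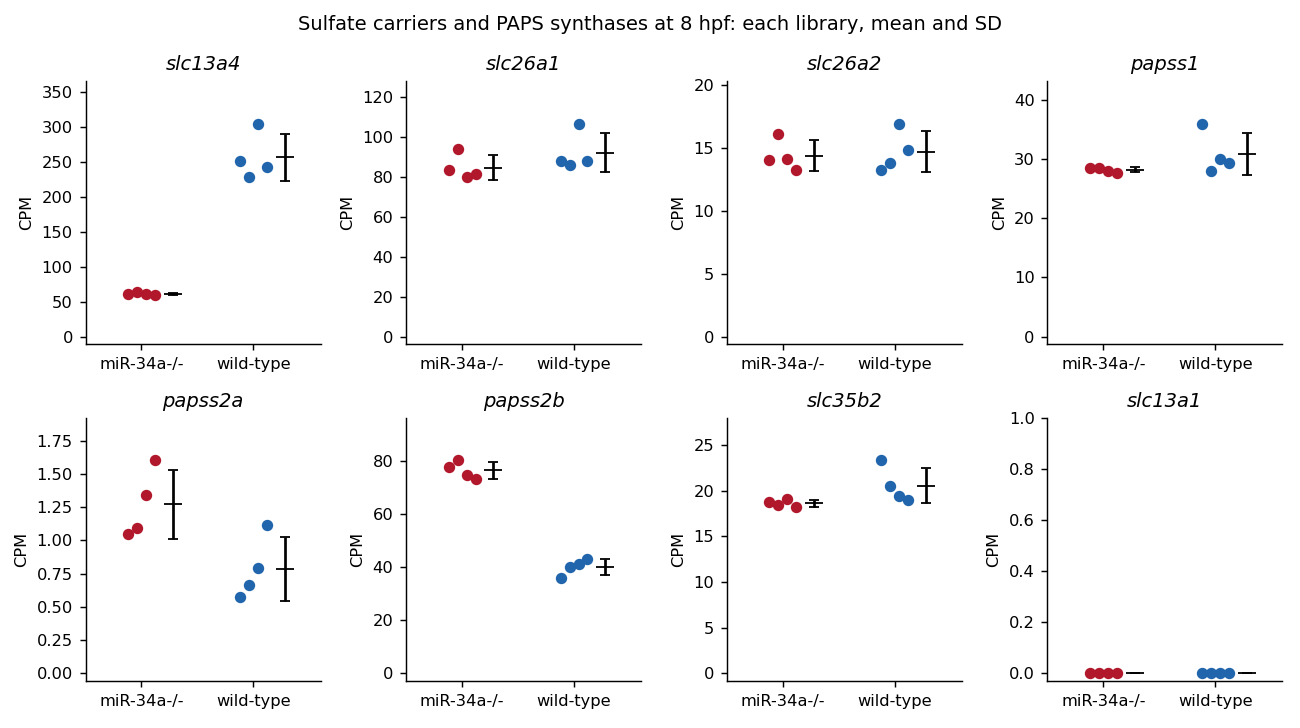
Level of each of the 8 members in every library, in CPM on axes that start at 0, with miR-34a-/- pools in red and wild-type pools in blue, and the mean and SD (n = 4) in black. The genotypes are apart for slc13a4 (59.8 to 63.3 against 228.5 to 305.1 CPM) and for papss2b (73.3 to 80.4 against 36.1 to 43.1 CPM), they overlap for the other tested members, and slc13a1 is at 0 throughout.

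slc26a1 (ENSDARG00000029832), which exchanges sulfate for oxalate or bicarbonate, did not show the slc13a4 pattern. It had 83.5, 94.1, 79.9 and 81.2 CPM in the mutant pools, against 88.0, 85.9, 106.7 and 88.0 CPM in the wild-type pools. The genotypes overlapped, and the difference was small, with a log2 fold change of -0.13 and a standard error (SE) of 0.07. It was not called (95% interval -0.25 to 0.00, edgeR adjusted p = 0.12). That call depended on single pools, because the adjusted p was 0.047 without wild-type replicate 2 and 0.038 without miR-34a-/- replicate 2, with log2 fold changes of -0.16 and -0.18.

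slc26a2 (ENSDARG00000011618) encodes the sulfate exchanger whose loss in people causes chondrodysplasias with undersulfated cartilage. It measured 14.01, 16.12, 14.08 and 13.3 CPM in miR-34a-/- pools, against 13.3, 13.8, 16.9 and 14.8 CPM in wild-type pools. The sets of values cover nearly the same span, with a log2 fold change of -0.04 (SE 0.10, 95% interval -0.25 to 0.16, edgeR adjusted p = 0.76). An effect as large as that of slc13a4 lies outside this interval.

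The carriers slc13a4, slc26a1 and slc26a2 all peaked in miR-34a-/- replicate 2 among the mutants and in wild-type replicate 3 among the controls. Within each library there were 0.725 ± 0.0374 slc13a4 counts per slc26a1 count in miR-34a-/- (range 0.673 to 0.761) and 2.78 ± 0.0938 in wild-type (range 2.66 to 2.86; SD, n = 4 each). The gap between the genotypes in this ratio follows from the choice of slc13a4 for its fall, and the ratio compares reads and not transcripts, since neither gene was scaled by length.

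The renal and intestinal carrier of mammals, slc13a1 (ENSDARG00000045638), had 0 counts in all 8 libraries, so at this depth its level was not above 0.193 to 0.420 CPM in any of them. It was not tested.

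**Figure D2:**
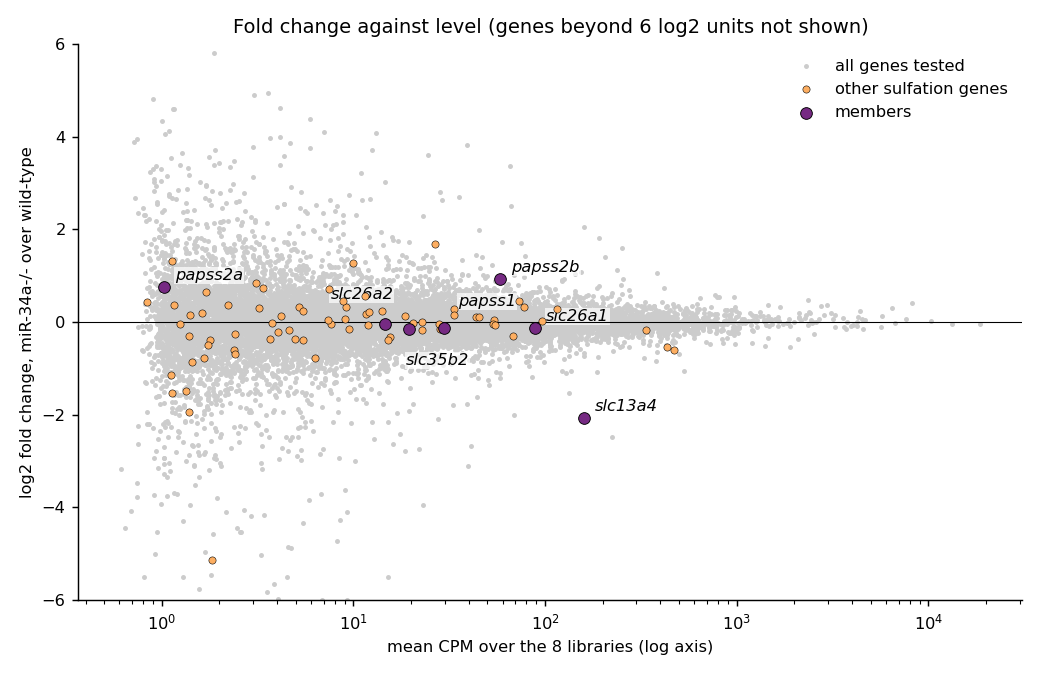
Log2 fold change (miR-34a-/- over wild-type) against mean CPM over the 8 libraries on a log axis. The 13842 genes tested are in grey, apart from those beyond the fold change axis, which are not shown. The other sulfation genes are in orange and the tested members in purple. slc13a4 lies at -2.07 and papss2b at 0.93, while slc26a1, slc26a2, papss1 and slc35b2 lie between -0.14 and -0.04.

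PAPS synthases carry both steps of sulfate activation, ATP sulfurylase and APS kinase, in a single protein. papss2b (ENSDARG00000056600), one of a pair of zebrafish counterparts of the synthase gene whose loss impairs skeletal growth in people, had 77.9, 80.4, 74.8 and 73.3 CPM in miR-34a-/- pools, against 36.1, 40.2, 41.2 and 43.1 CPM in wild-type pools. Every mutant pool was above every wild-type pool. The gene averaged 76.6 ± 3.17 CPM in miR-34a-/- and 40.1 ± 2.93 CPM in wild-type (SD, n = 4 each), and it was 1.91-fold higher in the mutants (log2 fold change 0.93, SE 0.06, edgeR adjusted p = 1.4e-12). With any single library left out the log2 fold change stayed between 0.89 and 0.96.

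papss1 (ENSDARG00000057099) encodes the other widely used synthase. It had 28.54, 28.59, 28.03 and 27.71 CPM in the mutant pools, against 36.0, 28.1, 30.0 and 29.4 CPM in the wild-type pools. Wild-type replicate 1 stood above the remaining pools, whose ranges overlapped, and the log2 fold change of -0.13 did not pass the test (SE 0.08, 95% interval -0.28 to 0.03, edgeR adjusted p = 0.19).

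papss2a (ENSDARG00000071021), the second copy of papss2, was close to the limit of detection. It had 1.046, 1.093, 1.346 and 1.604 CPM in miR-34a-/- pools, against 0.572, 0.662, 0.793 and 1.12 CPM in wild-type pools, from 58 counts in all mutants together and 29 in all controls. The genotypes overlapped through wild-type replicate 4. It did not pass the test (log2 fold change 0.75, SE 0.33, 95% interval 0.10 to 1.39, edgeR adjusted p = 0.065), and without wild-type replicate 4 it did, with a log2 fold change of 0.91 and an adjusted p of 0.044. The gene cleared the filter on low counts through the mutants, 4 of which reached the minimum CPM against 1 wild-type pool, so a difference in that direction was favoured by the filter itself.

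The gene table used here gives papss2a and papss2b the same symbol, and the copies were told apart by the study's own pairing of identifiers and names. How reads that fit both copies were counted is not given in the sources used here, so the split between them carries that uncertainty.

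Shares of the reads of the synthase genes within each library restate the same counts without any scaling, and they add no separate evidence. Shares below are of those reads. papss2b took 72.5, 73.0, 71.8 and 71.4% of them in miR-34a-/- pools, against 49.7, 58.3, 57.2 and 58.6% in wild-type pools. The genotypes did not overlap, and the mean shares were 72.2 ± 0.71% in miR-34a-/- and 55.9 ± 4.21% in wild-type (SD, n = 4 each), 16.2 percentage points apart. The share of papss1 was 26.6 ± 0.466% in miR-34a-/- and 43.0 ± 4.43% in wild-type, and that of papss2a was 1.21 ± 0.28% in miR-34a-/- and 1.09 ± 0.314% in wild-type. In sum, the synthase genes had 106 ± 3.34 CPM in miR-34a-/- (range 103 to 110) and 71.8 ± 2.03 CPM in wild-type (range 68.9 to 73.6). These are shares of reads, not of transcripts, because the genes were not scaled by length, and no test was made on them.

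**Figure D3:**
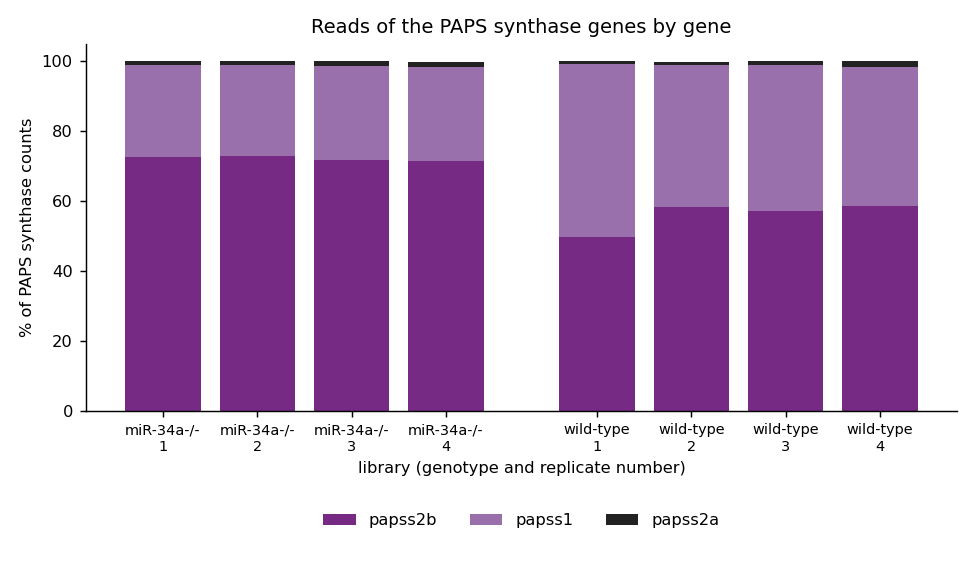
Percent of the PAPS synthase counts of each library that fell on papss2b, papss1 and papss2a, with the 4 miR-34a-/- libraries on the left and the 4 wild-type libraries on the right. papss2b takes 71.4 to 73.0% in miR-34a-/- and 49.7 to 58.6% in wild-type, and wild-type replicate 1 has the lowest share.

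slc35b2 (ENSDARG00000007886) encodes the transporter that moves PAPS from the cytosol into the Golgi, and zebrafish without it form defective cartilage. It had 18.8, 18.5, 19.1 and 18.2 CPM in miR-34a-/- pools, against 23.3, 20.5, 19.4 and 19.0 CPM in wild-type pools. The highest mutant pool just passed the lowest wild-type pool, and the difference was not called (log2 fold change -0.14, SE 0.09, 95% interval -0.32 to 0.03, edgeR adjusted p = 0.19).

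In several members the measured values varied less among the mutant pools than among the wild-type pools. The SD in miR-34a-/- was 1.47 CPM for slc13a4, 0.423 CPM for papss1 and 0.383 CPM for slc35b2, against 33.6, 3.53 and 1.95 CPM in wild-type. For slc13a4, whose mean was far lower in the mutants, the coefficient of variation was 2.40% in miR-34a-/- and 13.1% in wild-type. For papss2b the SD was 3.17 CPM in miR-34a-/- and 2.93 CPM in wild-type. Its mean was higher in the mutants, and its coefficient of variation was 4.14% in miR-34a-/- and 7.29% in wild-type. Genes outside the members also had a smaller SD in the mutants, such as krt4 (97.2 CPM in miR-34a-/- and 280 CPM in wild-type). Others did not, such as sulf1 (11.4 CPM in miR-34a-/- and 4.65 CPM in wild-type). These spreads were not tested against each other. The mutant values of papss1 and slc35b2 rest on 1248 and 823 counts in all. Counting error alone adds spread at such counts, and the SDs were not compared with it. They therefore do not show that the mutant pools were more alike.

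Other genes of sulfate supply and use were taken from lists of 141 symbols in 9 groups. These gave 135 gene identifiers, of which 71 passed the filter on low counts and 12 had no count in any library. Of the 71, 13 were higher, 17 were lower and 41 were not called, so 42.3% were called against 45.4% of all genes, and their median log2 fold change was -0.02. The genotypes did not overlap for 22 of the 71, against 38.8% of all genes tested. The pathway as listed was thus changed about as often as the rest of the genes, in both directions.

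Genes that move PAPS or clear its product PAP went in both directions. slc35b3, the second Golgi PAPS transporter, was higher (10.2 ± 1.31 CPM in miR-34a-/- and 8.04 ± 0.97 CPM in wild-type, log2 fold change 0.32, edgeR adjusted p = 0.046). bpnt2, the Golgi phosphatase that removes PAP, was lower at 13.9 ± 1.28 CPM in miR-34a-/- and 17.3 ± 1.25 CPM in wild-type (log2 fold change -0.32, adjusted p = 0.0094). Its cytosolic relative bpnt1 was lower as well, at 1.86 ± 0.38 CPM in miR-34a-/- and 2.88 ± 0.524 CPM in wild-type (log2 fold change -0.60, adjusted p = 0.035). The calls on slc35b3 and bpnt1 were lost with DESeq2, where the adjusted p was 0.088 for each, and with several single libraries left out.

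Of the other SLC13 and SLC26 carriers, 4 of 11 identifiers were tested, 2 were lower and 0 were higher. The shares over all genes tested were 22.4% lower and 23.0% higher. slc26a4, an exchanger of chloride, iodide and bicarbonate in mammals, averaged 0.999 CPM in miR-34a-/- and 1.86 CPM in wild-type (log2 fold change -0.86, SE 0.30, edgeR adjusted p = 0.021). slc26a11 averaged 4.71 CPM in miR-34a-/- and 6.17 CPM in wild-type (log2 fold change -0.38, SE 0.16, adjusted p = 0.047). Both overlapped between the genotypes, and with DESeq2 neither was called, at adjusted p-values of 0.061 and 0.11. Most mutant pools of slc26a4 were below the minimum CPM of the filter on low counts, so the filter favoured its direction.

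Sulfate is also made inside cells from cysteine, and of 8 tested genes of that route 2 were higher, 3 lower and 3 not called. Of this short list 62.5% were thus called, against 45.4% of all genes tested. cbsb, a copy of cystathionine beta-synthase at the entry of cysteine synthesis, was lower at 373 ± 20.5 CPM in miR-34a-/- and 567 ± 23.6 CPM in wild-type (log2 fold change -0.60, edgeR adjusted p = 4.8e-12). csad, which draws cysteine sulfinate towards taurine, was lower too (60.9 ± 1.88 CPM in miR-34a-/- and 75.4 ± 4.75 CPM in wild-type, adjusted p = 7.8e-05). suox, the enzyme that oxidises sulfite to sulfate, was higher at 9.26 ± 1.1 CPM in miR-34a-/- and 5.68 ± 0.286 CPM in wild-type (log2 fold change 0.70, adjusted p = 0.00011). In cbsb, csad and suox the genotypes were fully apart. The other called genes, tst and sqor, were named after their values were seen. tst was higher without overlap (log2 fold change 0.56, edgeR adjusted p = 0.00029). sqor was lower with overlap, at 0.686 ± 0.366 CPM in miR-34a-/- and 1.53 ± 0.902 CPM in wild-type (edgeR adjusted p = 0.028). Most mutant pools of sqor were below the minimum CPM of the filter, so the filter favoured its direction.

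**Figure D4:**
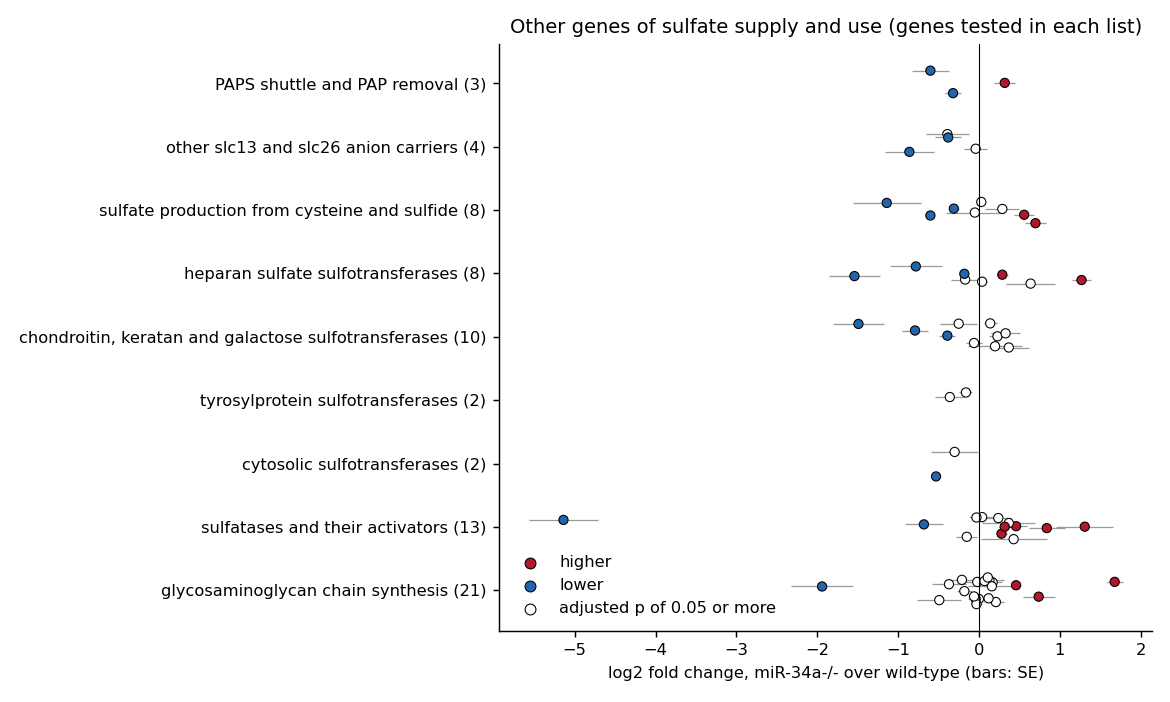
Log2 fold change (miR-34a-/- over wild-type) with its SE for each tested gene of the 9 lists of sulfate supply and use, coloured red where higher, blue where lower and white where the adjusted p was 0.05 or more. Calls of both signs occur within 5 of the lists, 13 higher and 17 lower in all, and the point far to the left is sulf2, whose fitted value rests on very few mutant reads.

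The sulfotransferases that use PAPS were mixed. Among 8 tested heparan sulfate sulfotransferases 2 were higher and 3 lower, so 62.5% were called against 45.4% of all genes tested. hs3st1l2, a 3-O-sulfotransferase gene, was 2.42-fold higher at 14.2 ± 0.697 CPM in miR-34a-/- and 5.78 ± 0.849 CPM in wild-type (edgeR adjusted p = 2.3e-09). hs6st2, a 6-O-sulfotransferase gene, was slightly lower at 314 ± 10 CPM in miR-34a-/- and 355 ± 9.48 CPM in wild-type (log2 fold change -0.18, adjusted p = 0.00052), and a 2-O-sulfotransferase gene, hs2st1 (ENSDARG00000062008), was lower at 0.564 ± 0.161 CPM in miR-34a-/- and 1.71 ± 0.159 CPM in wild-type (log2 fold change -1.54, adjusted p = 0.00027). The other called genes of the list were ndst1 (ENSDARG00000103606), an N-sulfotransferase gene that was higher (36.8 ± 2.2 CPM in miR-34a-/- and 30.0 ± 2.55 CPM in wild-type, log2 fold change 0.29, adjusted p = 0.0023), and hs3st3b1b, another 3-O-sulfotransferase gene, which was lower (1.27 ± 0.492 CPM in miR-34a-/- and 2.07 ± 0.93 CPM in wild-type, -0.78, adjusted p = 0.047). Both were named after their values were seen. So was the other hs2st1 entry (ENSDARG00000099478), which was not called (54.6 ± 1.06 CPM in miR-34a-/- and 53.4 ± 3.23 CPM in wild-type, log2 fold change 0.04, adjusted p = 0.65). All mutant pools of hs2st1 (ENSDARG00000062008) were below the filter minimum of 0.985 CPM and all wild-type pools above it. The filter itself therefore favoured a lower call for that gene in the mutants.

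Of 10 tested sulfotransferases for chondroitin, keratan and galactose, 0 were higher and 3 lower (30% called, against 45.4% of all genes tested). These were chst7 (13.2 ± 0.975 CPM in miR-34a-/- and 17.1 ± 1.00 CPM in wild-type, edgeR adjusted p = 0.0019), chst6 (4.63 ± 0.799 CPM in miR-34a-/- and 7.99 ± 1.1 CPM in wild-type, adjusted p = 0.00016) and chst3 (ENSDARG00000061070, 0.710 ± 0.244 CPM in miR-34a-/- and 1.97 ± 0.427 CPM in wild-type, adjusted p = 0.00027). chst3 and chst7 encode chondroitin 6-O-sulfotransferases in mammals. chst3 (ENSDARG00000061070) cleared the filter on low counts through the wild-type pools, as most mutant pools were below its minimum of 0.985 CPM. Its direction was thus favoured by the filter. The other chst3 entry (ENSDARG00000116042) was at 0.765 ± 0.303 CPM in miR-34a-/- and 0.752 ± 0.0823 CPM in wild-type. That entry did not pass the filter, was not tested and was named after its values were seen. Neither of the 2 tested tyrosylprotein sulfotransferase genes was called, with log2 fold changes of -0.36 and -0.16.

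Few cytosolic sulfotransferases were read at this stage, and 2 of 19 identifiers passed the filter. sult6b1 carried most of the reads of that list, and it was lower at 368, 339, 351 and 365 CPM in miR-34a-/- pools, against 500, 560, 496 and 504 CPM in wild-type pools. The genotypes were well apart (log2 fold change -0.53, SE 0.04, edgeR adjusted p = 6.8e-11).

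Sulfatases take sulfate off again, and of 13 tested genes for them and their activators 5 were higher, 2 lower and 6 not called, with a median log2 fold change of 0.28. Calls thus made up 53.8% of this list, against 45.4% of all genes tested. sulf1, an extracellular enzyme that trims 6-O-sulfate from heparan chains, was higher at 86.2 ± 11.4 CPM in miR-34a-/- and 69.3 ± 4.65 CPM in wild-type (log2 fold change 0.32, edgeR adjusted p = 0.00058), with overlap through miR-34a-/- replicate 3. gnsb, a lysosomal glucosamine-6-sulfatase gene, was higher by 0.28 on the log2 scale (adjusted p = 0.0014), again with overlap. In contrast, sulf2 (ENSDARG00000013838), a relative of sulf1, was nearly unread in the mutants, with 0.209, 0.0911, 0 and 0.0642 CPM in miR-34a-/- pools, against 2.52, 4.16, 4.14 and 3.36 CPM in wild-type pools. All mutant values were under the floor of 3 counts, so no fold is given (adjusted p = 1.4e-10). The other copy, sulf2a (ENSDARG00000018423), was higher at 1.65 ± 0.243 CPM in miR-34a-/- and 0.614 ± 0.346 CPM in wild-type, without overlap (log2 fold change 1.31, SE 0.35, adjusted p = 0.0028), and was named after its values were seen. How reads that fit both copies were counted is not known. sulf2 cleared the filter on low counts through the wild-type pools and sulf2a through the mutant pools, so each direction was favoured by the filter. gnsa, the other copy of gnsb, went the other way and was also named after its values were seen. It was lower at 1.80 ± 0.534 CPM in miR-34a-/- and 3.00 ± 0.526 CPM in wild-type, without overlap (log2 fold change -0.68, adjusted p = 0.021).

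The chains that carry the sulfate are built by another group of enzymes. Of 21 tested genes of glycosaminoglycan chain synthesis, 3 were higher, 1 lower and 17 not called. That list had 19% called, against 45.4% of all genes tested. chpfa, a chondroitin polymerizing factor gene, was 3.21-fold higher at 40.7 ± 1.68 CPM in miR-34a-/- and 12.6 ± 2.37 CPM in wild-type (edgeR adjusted p = 6.3e-14). ugdh, which makes the glucuronic acid donor for these chains, was higher at 84.6 ± 4.38 CPM in miR-34a-/- and 61.6 ± 4.00 CPM in wild-type (log2 fold change 0.46, adjusted p = 2.7e-07). The chondroitin synthase gene chsy3 was lower at 0.574 ± 0.223 CPM in miR-34a-/- and 2.20 ± 1.11 CPM in wild-type (adjusted p = 0.00014). chsy3 cleared the filter through the wild-type pools, as every mutant pool was below the minimum CPM, so the filter favoured that direction.

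The genes whose levels followed slc13a4 most closely over the 8 libraries, by Pearson correlation of log2 CPM, were gnpda2 (0.998), nav2 (0.997), dicp1.16, mcm3 and tubd1 (0.996 each). All of them were lower in the mutants, with log2 fold changes of -1.07 for gnpda2, -1.10 for nav2, -0.46 for mcm3 and -1.78 for tubd1. dicp1.16 was at 0 in all mutant libraries and averaged 3.03 CPM in wild-type, which makes it at least 10.6-fold lower against a floor of 3 counts per library. It cleared the filter on low counts through the wild-type pools alone, so the filter favoured its direction. The libraries fall into the genotypes and share them across all genes, so a high correlation here mostly restates a difference between the groups, and 144 genes reached 0.98. Among the members the coefficient was -0.98 for papss2b, -0.76 for papss2a, 0.61 for slc35b2, 0.55 for slc26a1, 0.54 for papss1 and 0.21 for slc26a2.

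Markers of embryonic cell layers were read alongside, and their counts stand against 23.0% of all genes tested called higher and 22.4% called lower. The enveloping layer, the outer epithelium, had 10 markers tested of which 2 were higher and 1 lower, and their summed level was 14026 to 14799 CPM in miR-34a-/- pools and 13382 to 15322 CPM in wild-type pools. Of 11 markers of the yolk syncytial layer, the nutrient-passing layer between yolk and embryo, 2 were higher and 5 lower with a median log2 fold change of -0.35, and none was at 0. Their sum was 2510, 2500, 2456 and 2461 CPM in miR-34a-/- pools, against 2894, 2454, 3093 and 2892 CPM in wild-type pools. It was lower in every mutant pool than in 3 of the 4 wild-type pools, and its part in the slc13a4 difference was not tested.

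Other layers were read in the same way, against the same 23.0% of all genes tested called higher and 22.4% called lower. Mesoderm and axis markers were lower in 5 of 6 cases, with sums of 1665 to 1804 CPM in miR-34a-/- and 1865 to 1975 CPM in wild-type, and endoderm markers in 3 of 4. No mesoderm or endoderm marker was called with a difference of at least 1.5-fold. Such a call was made for 3 germ plasm markers, all higher, and for 2 yolk syncytial layer markers, both lower. Of all genes tested, 17.6% were called with such a difference. Ectoderm markers summed to 855 to 919 CPM in miR-34a-/- and 816 to 925 CPM in wild-type, with 1 of 6 called. Germ plasm markers were higher in 4 of 6 cases and lower in 1, with sums of 118 to 127 CPM in miR-34a-/- and 116 to 143 CPM in wild-type. Markers of differentiated tissues, which should be near 0 at 8 hpf, summed to 5.19 to 9.72 CPM in miR-34a-/- and 5.47 to 9.51 CPM in wild-type. Whether a shift in these layers bears on the members was not tested.

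The genes next to each member were read to see whether the differences extended along the chromosome. Neighbours were the 3 nearest genes with a matched identifier on each side of a member, in the RefSeq gene order of assembly GRCz12tu. Genes without a clear match were passed over, so a closer gene can be missing. The members had 48 distinct neighbours, of which 29 were tested. Of these 29, 8 were higher and 3 lower, against 23.0% and 22.4% of all genes tested, and 18 were not called. On chromosome 4, 4 neighbours of slc13a4 were tested and none was lower. coa6, a factor for cytochrome oxidase assembly, was higher (7.93 ± 1.5 CPM in miR-34a-/- and 5.38 ± 0.296 CPM in wild-type, log2 fold change 0.54, edgeR adjusted p = 0.0042), as was ptprz1b, a receptor tyrosine phosphatase gene (6.67 ± 0.307 CPM in miR-34a-/- and 4.26 ± 1.37 CPM in wild-type, 0.61, adjusted p = 0.0065). ssbp1 was higher by 0.19 on the log2 scale (adjusted p = 0.028) and ndufa5 did not differ beyond its spread (0.01, adjusted p = 0.92). The lower level of slc13a4 was not shared by these 4 tested genes. zgc:162331 and si:ch211-258f14.2, directly before slc13a4, were almost unread in both genotypes and not tested.

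On chromosome 12, the nearest matched gene after papss2b was minpp1b, an inositol polyphosphate phosphatase gene, with an unmatched gene between them. minpp1b was at 24.7 ± 1.41 CPM in miR-34a-/- and 1.37 ± 0.575 CPM in wild-type (log2 fold change 4.08, edgeR adjusted p = 2e-17). On the other side, ptenb (0.07, adjusted p = 0.49) and atad1b (0.13, adjusted p = 0.46) were not called, nor was usp42 beyond minpp1b (-0.09, adjusted p = 0.12). A rise was therefore found at 1 of the 4 tested neighbours of papss2b. The second copies of these genes lie together on chromosome 17, where ptena (0.09, adjusted p = 0.23) and minpp1a (9.16 ± 0.27 CPM in miR-34a-/- and 9.38 ± 0.656 CPM in wild-type, -0.02, adjusted p = 0.89) next to papss2a were not called. sgms1a, a sphingomyelin synthase gene beyond minpp1a, was lower (8.94 ± 1.76 CPM in miR-34a-/- and 11.8 ± 2.65 CPM in wild-type, -0.44, adjusted p = 0.016), with overlap. Whether the counting used strand is not given in the sources used here, so reads from overlapping genes on opposite strands cannot be told apart.

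Large differences also stood beside a member that was not called. On chromosome 21, directly before slc26a1, pde6b, a phosphodiesterase gene of the visual cascade, was at 6.80 ± 1.26 CPM in miR-34a-/- and 1.17 ± 0.491 CPM in wild-type (log2 fold change 2.48, edgeR adjusted p = 2.8e-09). Placed 2 genes after slc26a1, atp5mea, a gene for a subunit of mitochondrial ATP synthase, was at 1.37 ± 0.137 CPM in miR-34a-/- and 7.58 ± 0.962 CPM in wild-type (-2.48, adjusted p = 3e-11). The other tested neighbours of slc26a1, rbp4l directly after it (0.48, adjusted p = 0.13) and zgc:86764 (0.01, adjusted p = 0.93), were not called. The neighbours of slc35b2 on chromosome 20 included hsp90ab1 (2598 ± 40.5 CPM in miR-34a-/- and 2256 ± 84.1 CPM in wild-type, 0.20, adjusted p = 1.5e-05) and eif2s1b (0.66, adjusted p = 3.4e-07), both higher. Its other tested neighbours, rbm25b (0.07, adjusted p = 0.25), nfkbie (-0.02, adjusted p = 0.94) and rnf8 (0.01, adjusted p = 0.96), were not called. Near the unread slc13a1 on chromosome 25, cadps2 was lower (2.81 ± 0.64 CPM in miR-34a-/- and 4.14 ± 0.416 CPM in wild-type, -0.56, adjusted p = 0.023), and aass was not called (0.31, adjusted p = 0.15). The tested neighbours of slc26a2 on chromosome 14 and, apart from aimp1a (0.39, adjusted p = 3.8e-05), of papss1 on chromosome 1 were not called.

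**Figure D5:**
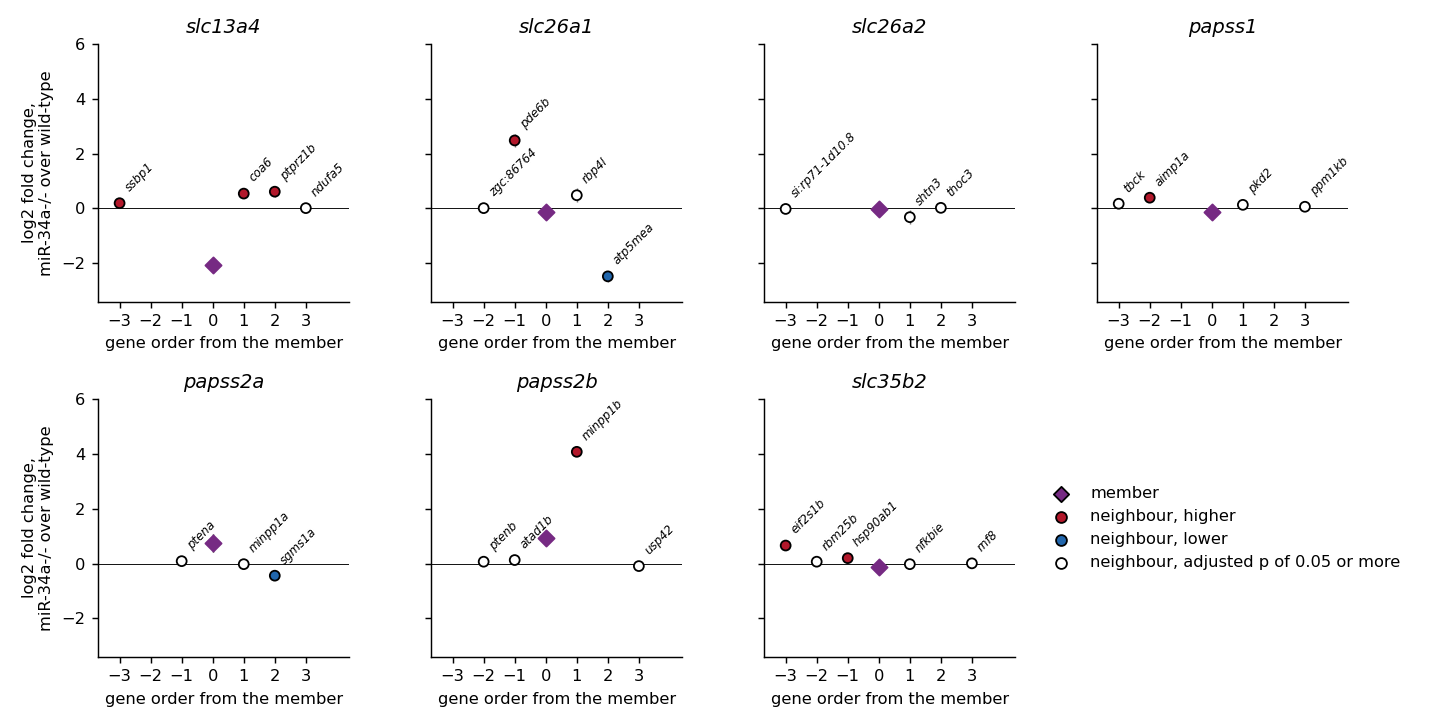
Log2 fold change (miR-34a-/- over wild-type, with SE) of the tested neighbours of each tested member (0 is the member, in purple). Neighbours are the 3 nearest genes with a matched identifier on each side, in the RefSeq gene order. Genes are coloured red where higher, blue where lower and white where the adjusted p was 0.05 or more. None of the tested neighbours of slc13a4 is below 0, minpp1b (4.08) stands above papss2b, and pde6b (2.48) and atp5mea (-2.48) lie within 2 places of slc26a1.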

How the data were processed

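RNA of 8 pools of whole embryos was sequenced from poly-A libraries. The authors deposited 1 table of raw read counts per Ensembl gene. The submitters' notes name Trim Galore 0.4.4, STAR 2.7.8 and the danRer11 build, and the counting program, the annotation release and the use of strand are not given in the sources used here. Samples were grouped by the genotype in their labels.

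Counts were analysed in R 4.3.3 with edgeR 4.0.16 (filterByExpr, TMM, glmQLFit and glmQLFTest on genotype alone). Genes with a Benjamini-Hochberg adjusted p under 0.05 over 13842 genes were called. CPM used TMM library sizes, and 95% intervals are the fold change ± 1.96 SE. Likeness to slc13a4 used log2 CPM with a prior count of 2. Alternatives used DESeq2 1.42.0 and limma 3.58.1, other scalings and filters, a replicate block and each library left out in turn. The script was tested on simulated data.

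The members and lists were chosen with earlier results of these data known. Symbols came from the gene table provided and the study's own pairing of identifiers with names, and 12 symbols of the pathway lists and 1 of the marker lists had no match. The text names all members, up to 3 called genes of each list by smallest adjusted p and the 5 genes most like slc13a4. It also names genes among the 3 nearest matched ones on each side of a member. A few further genes were named after their values were seen, as stated where they appear. Ratios and shares between genes are of reads, since no gene was scaled by transcript length. The floor of 3 counts covers counting error only.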

Additional observations from a re-analysis of the deposited data

Results flagged for a closer look

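Groups of 4 libraries were searched for a library that stood far from the other 3, by Dixon's ratio of the gap to the range. Of 58 groups, 3 had such a library, and chance alone marks about 1 in 20. slc26a1 was at 107 CPM in wild-type replicate 3 and at 85.9 to 88.0 CPM in the other wild-type pools (ratio 0.897). sult6b1 was at 560 CPM in wild-type replicate 2 and at 496 to 504 CPM in the other wild-type pools (ratio 0.867). The papss2b share of PAPS synthase counts was 49.7% in wild-type replicate 1 and 57.2 to 58.6% in the other wild-type pools (ratio 0.851). All 3 lie in wild-type pools, each in a different one.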

How the results depend on the processing

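Leaving out 1 library at a time, the number of members called higher was 1 to 2 and the number called lower 0 to 1. The second higher member was papss2a without wild-type replicate 4, and the lower one was slc26a1 without wild-type replicate 2 or without miR-34a-/- replicate 2. Over these fits the log2 fold change of slc26a1 was -0.18 to -0.05 (edgeR adjusted p 0.038 to 0.55), that of papss2a 0.57 to 0.91 (0.044 to 0.23), that of papss2b 0.89 to 0.96 and that of slc13a4 -2.13 to -1.98. Under the other 8 alternatives slc13a4 stayed between -2.09 and -2.06 and papss2b between 0.91 and 0.94, with 1 member called higher and 0 lower in each. The ranges of slc13a4 describe the value by which the gene was chosen and add no support for it. Called pathway genes numbered 12 to 14 higher and 12 to 17 lower over all alternatives. The papss2b share differed by 14.2 points between the genotypes without wild-type replicate 1 and by 16.2 with all libraries. No direction was reversed in any result past the threshold, and 307 of 336 values for the named pathway genes kept their side of it. The median log2 fold change of all genes was -0.02 to 0.00 under every scaling. The replicate numbers did not pair the samples (correlations of same-numbered libraries -0.0322 to 0.00772, below the best other pairing for each number). With the replicate block, 6082 genes were called against 6280 without it, papss2b was at 0.93 and the member counts stayed at 1 and 0. Scaling by coding length, for the synthase share and for the levels of the members, was not run because lengths were not at hand. Genes near the floor of 0.193 to 0.420 CPM, such as papss2a, sulf2, hs2st1 (ENSDARG00000062008) and chsy3, rest on few reads.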
